A study of Mus musculus with 3 samples.

Results

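The genes described here encode core proteins of the spliceosome and the related Lsm proteins. They were chosen by name, as the rows of the 3 deposited gene tables whose symbol begins with Lsm, Prpf, Srsf or U2af and a digit, with Sf3a or Sf3b and a digit, or with Snrp. This gave 59 genes of the 23234 in the tables: 12 Lsm, 12 Snrp, 8 Sf3, 13 Prpf, 11 Srsf and 3 U2af genes. RNA was sequenced from 3 sorted cell populations of wild-type C57BL/6J mice aged 6 to 15 weeks, all of which had been given 10 µg of lipopolysaccharide (LPS, a bacterial cell wall component) in 10 µL through both nostrils. The cells called double-positive (DP) were sorted as CD45+Ly6G+SiglecF+ from nasal tissue, 2 days after the LPS. The cells called nasal neutrophils were sorted as CD45+Ly6G+SiglecF- from nasal tissue on day 1. For blood neutrophils that second gate was applied to peripheral blood, again on day 1. Each population is a single library, so no difference below has a replicate check, and no p-value or standard deviation can be given. Between DP and nasal neutrophils the gate and the day differ together and cannot be told apart, and between DP and blood neutrophils the tissue does too. The labels do not say whether animals were pooled.

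As background, the spliceosome removes introns from pre-mRNA. It is built from small nuclear ribonucleoproteins (snRNPs), each a small RNA wrapped by a ring of Sm proteins (Snrpb, Snrpd1 to Snrpd3, Snrpe to Snrpg) or, on U6 RNA, by a ring of Lsm proteins. SF3A and SF3B clamp the U2 snRNP onto the branch point, U2AF reads the end of the intron, Prpf proteins drive the later rearrangements, and SR proteins (Srsf) mark exons. A second, cytoplasmic Lsm ring that contains Lsm1 helps to remove the cap of mRNAs that are being degraded.

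Values are fragments per kilobase of transcript and per total of mapped fragments (FPKM), a level scaled to length and to library size. Differences are log2 ratios of FPKM + 1, which understate the ratio of genes with low levels. A gene was compared where its mean over the 3 libraries was at least 1 FPKM, which held for 10719 genes and for 55 of the 59 spliceosome and Lsm genes. All 55 were at 1 FPKM or more in at least 2 libraries, and 52 of them in all 3. The 4 genes below the limit were Lsm11, Lsm14b, Prpf40b and Srsf12, whose highest value in any library was 1.01 FPKM (Lsm14b in nasal neutrophils). A gene was counted as higher or lower at a log2 ratio of 2, which is 4-fold. The steps between low values put the depth near 54000000 fragments for both DP and blood neutrophils and near 12900000 for nasal neutrophils, so the nasal neutrophil values rest on the fewest fragments; the step was least clear in DP. Neutrophil markers (14 genes) summed to 15699 FPKM in DP, 60965 in nasal and 80365 in blood neutrophils, with S100a8 listed at 0 in blood. The order of nasal and blood in these sums is set by a few abundant genes. Gene by gene, the median log2 ratio of the 14 in nasal against blood neutrophils was 0.72, with 7 at least 2-fold higher and 4 lower. DP was lower gene by gene as well. The median was -2.14 in DP against nasal neutrophils, with 0 at least 2-fold higher and 9 lower. Against blood neutrophils it was -1.42, with 3 higher and 9 lower. The 9 eosinophil markers summed to 11.2 FPKM in DP, 16.9 in nasal and 6.86 in blood neutrophils; the granule genes Epx and Prg3 were listed at 0 in all 3 libraries, Ear2 reached 11.5 FPKM in nasal neutrophils and Alox15 reached 7.98 FPKM in DP. The 20 olfactory and epithelial markers summed to 3423 FPKM in DP, 2394 in nasal and 6.51 in blood neutrophils, where 11 of the 20 were listed at 0. Red cell markers summed to 18.5, 25.9 and 5511 FPKM in the same order, B and T cell markers to 18.5, 48.6 and 74.96 FPKM, and macrophage markers to 461, 556 and 401 FPKM. The median log2 ratio of the 8 compared macrophage markers in DP against nasal neutrophils was -1.38, with 0 at least 2-fold higher and 5 lower. In such bulk libraries, fewer cells of a type and less RNA per cell cannot be told apart.

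The spliceosome and Lsm genes were higher in DP than in both neutrophil libraries. Their summed level was 3244 FPKM in DP, 1234 FPKM in nasal and 1203 FPKM in blood neutrophils, which is 0.509%, 0.199% and 0.181% of everything in the table. The median over the 59 genes was 24.6 FPKM in DP, 11.4 in nasal and 8.88 in blood neutrophils. Of the 55 genes compared, 46 were highest in DP (83.6%, against 58.7% of all 10719 genes), 4 were highest in nasal neutrophils (Sf3a1, Sf3a2, Srsf3 and Srsf6; background 22.3%) and 5 in blood neutrophils (Lsm10, Prpf6, Prpf18, Sf3b1 and Sf3b2; background 19.0%). None of the 55 was lowest in DP. Among all 10719 compared genes, 697 had the order nasal, blood, DP and 853 the order blood, nasal, DP.

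**Figure D1:**
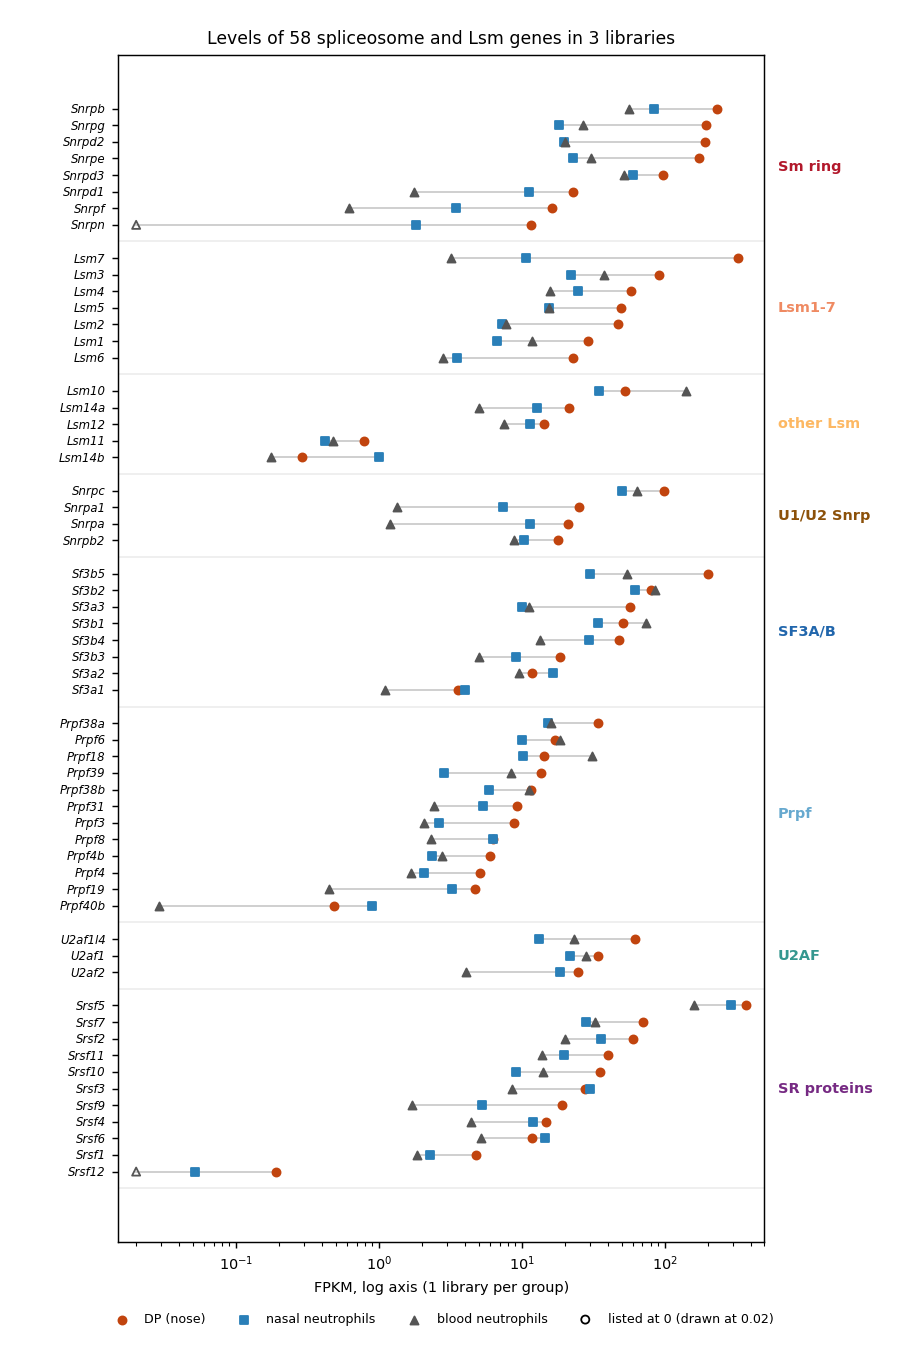
Level of 58 of the 59 genes in FPKM on a log axis, with 1 symbol per library (DP, nasal neutrophils, blood neutrophils) and genes grouped by complex; open symbols are values listed at 0, drawn at 0.02. In the Sm and Lsm1-7 groups every DP symbol is the rightmost, while Lsm10, Prpf18, Sf3b1 and Sf3b2 have the blood symbol furthest right.

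In DP against nasal neutrophils, 10 of the 55 genes reached 4-fold higher in DP and 0 were 4-fold lower, where 8.42% of all compared genes were higher and 3.62% lower. The 10 were Lsm7, Snrpg, Snrpd2, Snrpe, Sf3b5, Lsm2, Sf3a3, Lsm6, Snrpn and U2af1l4. The median log2 ratio was 0.97, against 0.57 for all compared genes, and 51 of 55 genes lay above 0 (69.3% of all genes did). When every ratio was taken relative to the median of all genes, 5 of the 10 remained past 4-fold: Lsm7, Snrpg, Snrpd2, Snrpe and Sf3b5. In nasal against blood neutrophils, 2 genes were 4-fold higher in the nose, Snrpa and Snrpd1 (background 13.1%), and 1 was 4-fold lower, Lsm10 (background 3.23%). The median there was 0.21, against 0.41 for all genes, and 16 genes were at least 2-fold higher (background 33.5%). In DP against blood neutrophils, 15 genes were 4-fold higher (background 24.0%) and 0 were lower (background 3.57%). There 50 of the 55 lay above 0, where 74.4% of all genes did, and 2 were at least 2-fold lower, Lsm10 and Prpf18 (background 9.49%). The 15 were 7 Sm genes, Lsm2, Lsm6, Lsm7, Snrpa, Snrpa1, Sf3a3, U2af2 and Srsf9, and 7 genes were past 4-fold relative to the median of all genes (0.95). One of the Sm genes, Snrpn, counts there against a blood value listed at 0, which can be a failed estimate. Both comparisons with DP use the same DP library, so they are not independent. Of the 55 genes, 27 had the order DP, nasal, blood (49.1%, against 40.2% of all compared genes) and 19 the order DP, blood, nasal (34.5%, against 18.5%). The olfactory and epithelial marker sum had the first of these orders. The median log2 ratio of its 19 compared genes in DP against nasal neutrophils was 0.48, below the 0.57 of all genes. The part of these and the other marker genes in the ratios was not tested.

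**Figure D2:**
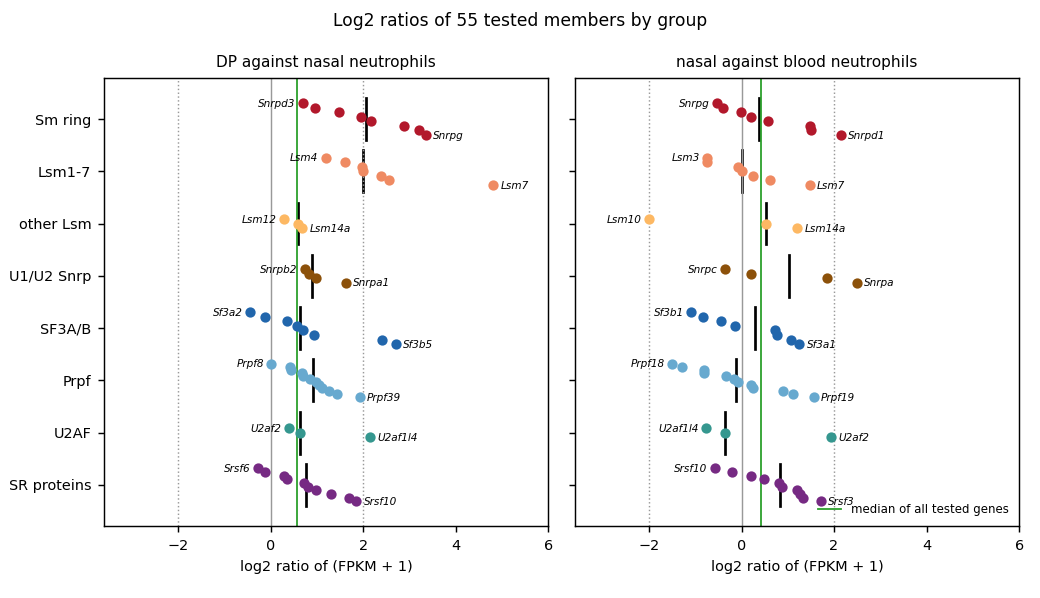
Log2 ratio of FPKM + 1 for the 55 compared genes by complex, for DP against nasal neutrophils on the left and nasal against blood neutrophils on the right; black bars are group medians, the green line is the median of all compared genes and dotted lines mark 4-fold. On the left the Sm ring and Lsm1-7 medians sit at 2.05 and 1.99, and on the right the same groups sit at 0.39 and near 0.

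The promoters of the genes with the 4 highest and the 2 lowest log2 ratios in DP against nasal neutrophils, among the genes with an entry in the RefSeq promoter table, are shown so that the genes that differed most can be compared with those that did not. Each is the stretch just before the annotated start, up to 150 bases, shortened where an exon of another coding gene begins. Sequences are RefSeq, build GRCm38.p6, and capitals mark CGGAAG or its reverse complement CTTCCG, the core recognised by ETS factors.
Lsm7, chr10:80855210-80855274, minus strand: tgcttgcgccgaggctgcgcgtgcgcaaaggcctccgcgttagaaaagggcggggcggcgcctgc
Snrpg, chr6:86371390-86371539, plus strand: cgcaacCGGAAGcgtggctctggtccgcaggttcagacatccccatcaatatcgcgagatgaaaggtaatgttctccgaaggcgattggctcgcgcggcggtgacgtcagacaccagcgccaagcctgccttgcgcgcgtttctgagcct
Snrpd2, chr7:19149688-19149837, plus strand: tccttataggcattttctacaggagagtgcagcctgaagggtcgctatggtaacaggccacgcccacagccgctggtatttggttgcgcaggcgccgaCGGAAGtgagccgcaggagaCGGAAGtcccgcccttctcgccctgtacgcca
Snrpe, chr1:133610281-133610430, minus strand: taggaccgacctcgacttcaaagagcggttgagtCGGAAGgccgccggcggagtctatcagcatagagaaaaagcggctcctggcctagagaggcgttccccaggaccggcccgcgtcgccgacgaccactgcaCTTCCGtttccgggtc
Srsf6, chr2:162931358-162931507, plus strand: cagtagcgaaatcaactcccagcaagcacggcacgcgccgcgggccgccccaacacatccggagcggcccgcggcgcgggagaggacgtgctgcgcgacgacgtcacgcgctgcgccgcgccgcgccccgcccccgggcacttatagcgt
Sf3a2, chr10:80798627-80798734, plus strand: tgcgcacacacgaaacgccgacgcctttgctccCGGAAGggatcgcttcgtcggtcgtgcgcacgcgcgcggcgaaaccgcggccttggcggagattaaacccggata

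The printed stretches of Snrpg, Snrpd2 and Snrpe held 1, 2 and 2 copies of these letters. That of Sf3a2 held 1, and those of Lsm7 and Srsf6 held 0. The Lsm7 stretch was shortened to 65 bases. Its 300-base window, counted next, did hold CGGAAG on either strand, and that of Srsf6 did not. Over the full 300-base window (250 before and 50 after the start), 28 of the 49 genes with an entry held CGGAAG on either strand (57.1%), against 32.8% of the promoters of compared genes and 17.2% of all 27025 promoters. The longer CCGGAAG, which contains it, was in 17 of the 49 (34.7%), against 18.9% and 9.12%. Other motifs were near the share of compared genes: CCAAT in 44.9% against 39.3%, GGGCGG in 67.3% against 62.1%, TATAAA in 8.16% against 8.30%, CACGTG in 8.16% against 10.6% and the NRF1 motif GCATGCGC in 8.16% against 5.43%. CGGAAG was in 6 of the 9 genes with an entry that were 4-fold higher in DP against nasal neutrophils, beside 28 of 49 overall. These matches describe letters and not binding.

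The Sm ring genes, which encode the ring shared by most snRNPs, had a median log2 ratio of 2.05 in DP against nasal neutrophils, with 4 of 8 past 4-fold (background 8.42%). Snrpg (SmG) was at 196 FPKM in DP, 18.3 in nasal and 26.8 in blood neutrophils, a log2 ratio of 3.35 in DP against nasal neutrophils. Snrpd2 (SmD2) was at 192, 19.9 and 20.1 FPKM (log2 ratio 3.21), and Snrpe (SmE) at 176, 22.8 and 30.6 FPKM (2.89). For these 3 genes the DP library stood apart, while nasal and blood neutrophils lay within 2-fold of each other on the log2 scale. Snrpb, which encodes SmB, was the most abundant Sm gene in every library, at 234, 83.7 and 56.0 FPKM, and its log2 ratio of 1.47 was smaller. Snrpd3 (SmD3) had the smallest ratio of the Sm genes in both comparisons with DP, at 97.9, 60.2 and 52.3 FPKM, with a log2 ratio of 0.69 against nasal and 0.89 against blood neutrophils.

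Snrpd1 and Snrpf followed another order, with blood neutrophils far below both nasal libraries. Snrpd1 (SmD1) was at 22.8 FPKM in DP, 11.3 in nasal and 1.77 in blood neutrophils, log2 ratios of 0.95 and, for nasal against blood, 2.15. Snrpf (SmF) was at 16.3, 3.49 and 0.615 FPKM. The nasal Snrpf value rests on about 12 fragments at its coding length and about 39 at its transcript length. Snrpn, which encodes SmN, the Sm protein best known from neurons, was at 11.6 FPKM in DP, 1.83 in the nasal library and listed at 0 in blood neutrophils. It had the lowest level of the Sm genes in every library. It shares exons with Snurf (0.678, 1.71 and 0 FPKM), whose order over the libraries is not the same. Most neuronal genes of the olfactory list had, like Snrpn, a log2 ratio above 0 in DP against nasal neutrophils. So did 69.3% of all compared genes, whose median was 0.57. The ratio was 2.17 for Gng13, 1.61 for Gng8, 1.56 for Ncam1, 1.48 for Gnal, 1.12 for Cnga2 and 0.40 for Stmn2. Gap43 also ran this way, at 49.7, 9.96 and 0 FPKM, while Omp was nearly level at 244, 234 and 0 FPKM. Tubb3 (12.5, 24.4 and 0.135 FPKM) and Adcy3 (7.39, 24.6 and 0.164 FPKM) ran the other way. The part of other cells in the Snrpn values was not tested.

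Against blood neutrophils, 7 of the 8 Sm genes reached 4-fold higher in DP (24.0% of all genes did), all but Snrpd3. Because members of the ring differed by unequal amounts, their shares of the summed Sm level were not the same between libraries. Snrpd3 made up 10.3% of that sum in DP, 27.2% in nasal and 27.8% in blood neutrophils. Snrpg made up 20.7%, 8.24% and 14.2%, and Snrpd2 20.3%, 8.99% and 10.7%. The rank of Snrpb was first in all 3 libraries, and Snrpd1, Snrpf and Snrpn were the lowest 3 in all 3.

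**Figure D3:**
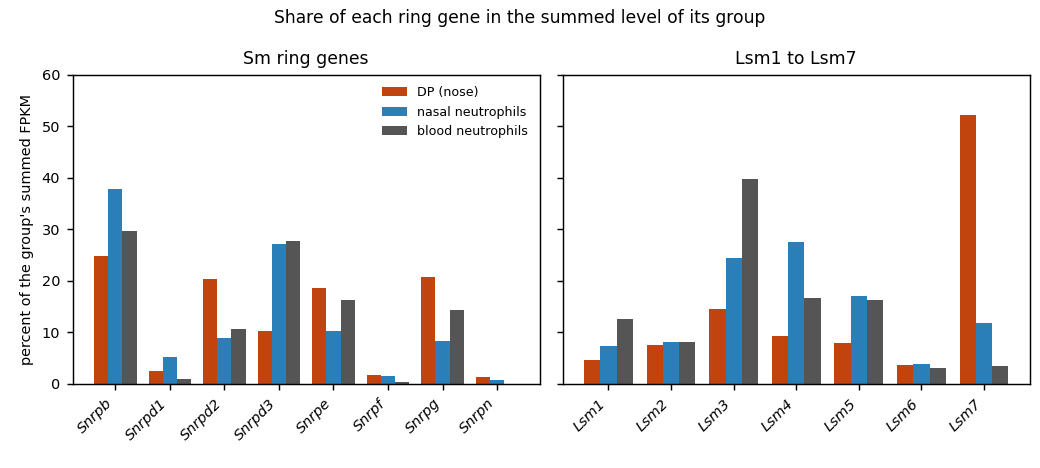
Share of each gene in the summed FPKM of its group, in percent, for the Sm ring genes on the left and Lsm1 to Lsm7 on the right, with 1 bar per library. Lsm7 holds 52.3% of the Lsm1 to Lsm7 sum in DP, 11.8% in nasal and 3.40% in blood neutrophils. The Snrpd3 share is lowest in DP.

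Lsm1 to Lsm7 form the Lsm rings: Lsm2 to Lsm7 are shared, Lsm1 completes the cytoplasmic ring, and Lsm8, which completes the ring on U6 RNA, was not analysed here. All 7 reached 2-fold higher in DP than in nasal neutrophils (33.6% of all compared genes were) and also than in blood neutrophils (48.6%). In DP against nasal neutrophils 3 of the 7 were past 4-fold (background 8.42%), of which Lsm7 alone stayed past it with centring, upper-quartile scaling or length bins, and the group's median log2 ratio was 1.99, with 1.81 in DP against blood neutrophils and near 0 between the neutrophil libraries. Lsm7 had the largest ratio of all 55 genes, at 326 FPKM in DP, 10.7 in nasal and 3.22 in blood neutrophils. Its log2 ratio was 4.81 in DP against nasal neutrophils and 6.28 against blood neutrophils, and it remained past 4-fold in both under the 7 other settings in which single genes were recomputed. At its coding length these levels correspond to about 5440, 43 and 54 fragments, and at its transcript length to about 8239, 65 and 81.

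The other ring members were closer together. Lsm2 was at 47.4, 7.27 and 7.73 FPKM (DP, nasal, blood; log2 ratio 2.55 in DP against nasal neutrophils), and Lsm6 at 22.8, 3.55 and 2.84 FPKM (2.39), with about 11 fragments behind the nasal value at its coding length. Lsm3 was at 90.7, 22.1 and 37.7 FPKM and Lsm1 at 29.3, 6.69 and 11.9 FPKM, with log2 ratios of 1.99 and 1.98, just under the limit of 2. Both had their lowest level in nasal neutrophils. Lsm5 was at 49.3 FPKM in DP and 15.5 in each neutrophil library, and Lsm4 at 58.0, 24.9 and 15.8 FPKM, with log2 ratios of 1.61 and 1.19. Each of these 6 genes was highest in DP, as Lsm7 was. The decapping partners of the cytoplasmic ring (7 compared genes) had a median of 0.07 in DP against nasal neutrophils, and none was 4-fold different. With 7 genes, 0 is near the shares of all compared genes (8.42% higher and 3.62% lower). Among them Ddx6, the helicase that works with this ring, was at 8.60 FPKM in DP, 23.5 in nasal and 18.6 in blood neutrophils, the reverse order to Lsm1.

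Of the Lsm genes outside those rings, Lsm10 was the only compared Lsm gene that was highest in blood neutrophils. It encodes a subunit of the U7 snRNP, which trims histone pre-mRNA, and was at 53.2 FPKM in DP, 34.7 in nasal and 142 in blood neutrophils. Its log2 ratio of -2.01 in nasal against blood neutrophils was the lowest of the 55 genes and the only one past 4-fold in that direction, but it was -1.92 with values rescaled to a common sum and -1.89 with a pseudocount of 5, under 4-fold. Lsm11, its partner in U7, was near the detection limit at 0.791, 0.418 and 0.480 FPKM. Lsm14a, a cytoplasmic protein of mRNA granules, was at 21.3, 12.9 and 5.02 FPKM, and Lsm12 at 14.2, 11.4 and 7.58 FPKM. The other compared genes of histone pre-mRNA processing (6) had medians of 1.15 in DP against nasal neutrophils and -0.33 in nasal against blood neutrophils, with 0 past 4-fold in either. Of all compared genes, 8.42% and 13.1% were 4-fold higher in these comparisons, and 3.62% and 3.23% lower. With 6 genes, 0 is near these shares.

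The U1 and U2 snRNP proteins were the group with the highest median in nasal against blood neutrophils (1.02), though its 4 genes differed from each other. Snrpa, the A protein of U1, was at 21.1 FPKM in DP, 11.4 in nasal and 1.19 in blood neutrophils, a log2 ratio of 2.50 in nasal against blood. Snrpa1 (U2 snRNP) was at 25.04, 7.396 and 1.35 FPKM (1.84). Snrpb2 (U2 snRNP) was at 17.9, 10.4 and 8.88 FPKM and Snrpc (U1 snRNP) at 99.1, 49.97 and 64.6 FPKM, with ratios of 0.20 and -0.36. Snrpa1 and Snrpb2, whose proteins bind U2 RNA together, therefore differed in how far blood lay below the nose. Snrpa and Snrpc each have 7 near-identical copies elsewhere in the genome, most of them annotated as pseudogenes, and how the authors' counting split reads among such copies is not given in the sources used here.

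In SF3A and SF3B, the complexes of the U2 snRNP that meet the branch point, 2 of 8 genes were 4-fold higher in DP than in nasal neutrophils (background 8.42%) and the group median (0.63) was near that of all genes; it was -0.02 under upper-quartile scaling. Sf3b5, the smallest SF3B subunit, was at 200.2 FPKM in DP, 29.9 in nasal and 54.5 in blood neutrophils (log2 ratio 2.70). Sf3a3 was at 57.4, 9.99 and 11.2 FPKM (2.41, and 1.84 relative to the median of all genes, under 4-fold). Its SF3A partners did not share this: Sf3a1 was at 3.605, 3.997 and 1.10 FPKM and Sf3a2 at 11.9, 16.6 and 9.61 FPKM, with ratios of -0.12 and -0.45. Sf3a2, whose promoter is printed above, thus had the lowest ratio of the 55 genes. Sf3b1, which holds the branch point and is often mutated in blood cancers, was at 50.9, 34.1 and 73.7 FPKM, and Sf3b2 at 80.3, 62.5 and 85.1 FPKM. Both were highest in blood neutrophils, and in DP they were within 2-fold of nasal neutrophils. Sf3b3 (18.4, 9.16 and 4.99 FPKM) and Sf3b4 (48.3, 29.5 and 13.5 FPKM) were highest in DP and lowest in blood neutrophils.

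The Prpf genes encode proteins of the tri-snRNP and of the activated spliceosome. All 12 compared genes were above 0 in DP against nasal neutrophils, 5 of them by 2-fold (background 33.6%) and 0 by 4-fold (8.42%), with a median of 0.92; relative to the median of all genes, 9 of the 12 were above 0. Prpf39, a U1-associated protein, had the largest ratio of the group, at 13.7 FPKM in DP, 2.87 in nasal and 8.41 in blood neutrophils (1.93). Prpf3 was at 8.81, 2.64 and 2.07 FPKM (1.43). Prpf8, the large protein at the catalytic centre, was level between the nasal libraries, at 6.305 FPKM in DP and 6.25 FPKM in the nasal neutrophil library, and lower in blood at 2.33 FPKM. Prpf19, the ubiquitin ligase of the complex named after it, was at 4.72, 3.28 and 0.446 FPKM. Prpf18, which acts in the second step of splicing, ran the other way, at 14.3 FPKM in DP, 10.3 in nasal and 30.8 in blood neutrophils. Between nasal and blood neutrophils the group therefore spread in both directions, from 1.56 (Prpf19) to -1.50 (Prpf18), around a median of -0.12. Prpf4, Prpf4b, Prpf6, Prpf31, Prpf38a and Prpf38b had ratios between 0.69 and 1.12 in DP against nasal neutrophils.

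U2AF is a pair of proteins that bind the end of the intron. U2af2, the large subunit, was at 24.6 FPKM in DP, 18.5 in nasal and 4.11 in blood neutrophils. U2af1, the small subunit, was at 34.4, 21.7 and 28.1 FPKM, so the 2 subunits were close in the nasal libraries while U2af2 alone was low in blood. U2af1l4, a paralog of U2af1, was at 61.7, 13.2 and 23.2 FPKM (log2 ratio 2.14 in DP against nasal neutrophils). It overlaps Psenen on the other strand, at 662, 154 and 350 FPKM in the same order of libraries. Whether the counting used strand is not given in the sources used here, so reads from the stretch where these 2 genes overlap may count for either.

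The SR proteins bind exons and recruit the spliceosome to them. Their ratios in DP against nasal neutrophils were moderate, with a median of 0.77, 3 of 10 genes at 2-fold (33.6% of all compared genes were) and 0 at 4-fold (8.42%). All 10 were at least 2-fold higher in DP than in blood neutrophils, where 48.6% of all compared genes were. The median log2 ratio of all genes there was 0.95, close to that limit. Relative to it the SR median was 0.43, with all 10 above 0. Set against genes of like coding length, the SR median was 0.158, with 6 of 10 above. In nasal against blood neutrophils 8 of the 10 were above 0 (62.1% of all genes were). Srsf5 was the most abundant of all 59 genes in every library, at 373 FPKM in DP, 293 in nasal and 159 in blood neutrophils. Srsf9 had the steepest order, at 19.1, 5.26 and 1.71 FPKM, and was the only SR gene past 4-fold in DP against blood (log2 ratio 2.89). Srsf10, a splicing repressor when dephosphorylated, was at 35.5, 9.11 and 14.1 FPKM, and Srsf7 at 71.2, 28.0 and 32.5 FPKM. Srsf3 and Srsf6 were the 2 SR genes that were not higher in DP than in nasal neutrophils, at 27.6, 30.3 and 8.57 FPKM and at 11.8, 14.5 and 5.17 FPKM. Srsf1, the founding SR protein, was among the lowest at 4.81, 2.29 and 1.84 FPKM. The kinases that phosphorylate SR proteins differed from each other: Srpk1 was at 6.59, 3.06 and 3.29 FPKM, highest in DP. Srpk2 was at 5.25 FPKM in DP, 5.69 in nasal and 27.7 in blood neutrophils, and Clk4 at 46.5, 23.7 and 67.01 FPKM. Of the 6 compared kinases, 0 were 2-fold higher or lower in DP against nasal neutrophils (backgrounds 33.6% and 11.3%). In nasal against blood neutrophils 3 were 2-fold lower (background 12.8%).

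The Lsm and Snrp genes encode short proteins and the Prpf and Sf3 genes long ones, with median coding lengths of 372 and 1810.5 nt, so the classes were compared. In DP against nasal neutrophils the median log2 ratio was 1.62 for the 22 compared Lsm and Snrp genes and 0.78 for the 20 Prpf and Sf3 genes, a difference of 0.84. There were 7 of 22 and 2 of 20 past 4-fold, where 8.42% of all genes were, so the second share is near that of all genes. In DP against blood neutrophils the medians were 2.26 and 1.09, with 12 of 22 and 1 of 20 past 4-fold, above and below the 24.0% of all genes. In nasal against blood neutrophils they were 0.22 and -0.11, and classes cut by coding length (up to 500 against over 1000 nt) reversed that difference, to -0.51. Length and name class did not coincide fully: Sf3b5 has a coding length of 258 nt and a ratio of 2.70, in the range of the short Sm genes, while Sf3a3 has 1503 nt and a ratio of 2.41.

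Genes with short coding sequences were higher in DP over the whole table as well. Among compared genes with a coding length of up to 500 nt that are not spliceosome or Lsm genes (1193), the median in DP against nasal neutrophils was 1.15 and 22.2% were 4-fold higher. The 17 spliceosome and Lsm genes of that length had a median of 1.98, with 7 past 4-fold. Above 2000 nt the medians were 0.20 for 2189 other genes and 0.70 for the 9 members. Across genes, coding length and log2 ratio had a Spearman rho of -0.51 over the 55 genes and -0.265 over 10041 genes; genes are not independent replicates, all points share the same 2 libraries, and these values are given as descriptions. Between nasal and blood neutrophils rho was 0.04 over either set.

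When each ratio was set against the median of genes of like coding length, in 20 bins, the difference between the name classes in DP against nasal neutrophils was 0.20 in place of 0.84. The Sm ring then lay at a median of 1.00 above its bins, with 6 of 8 genes above, and Lsm1 to Lsm7 at 0.83, with 7 of 7 above; all 55 genes had a median of 0.385, with 38 above. Of the single genes, Lsm7 exceeded 99.0% of the 494 genes in its bin, Sf3a3 98.8% of 496, Snrpd2 96.4% of 496, Prpf39 96.2% of 500 and Snrpg 94.3% of 494. In contrast, Snrpd3, Snrpd1 and Lsm10, all short, lay below the medians of their bins, at differences of -0.454, -0.195 and -0.545. Respiratory chain subunits, mitochondrial ribosomal proteins and proteasome subunits, other families with median coding lengths of 429, 582 and 831 nt, had medians of 2.29, 1.74 and 1.27 in the same comparison, and cytosolic ribosomal proteins, with a median coding length of 468 nt, had 0.94. The part of length, library depth and RNA quality in these ratios was not tested.

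**Figure D4:**
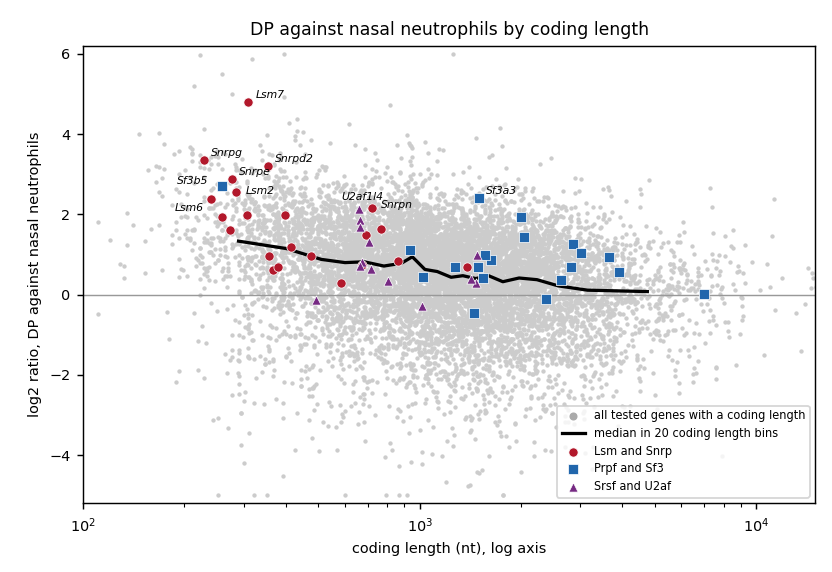
Log2 ratio of FPKM + 1 in DP against nasal neutrophils by coding length in nt on a log axis; grey points are compared genes with a coding length (10041, of which 2 and 9 are drawn at the limits of 6 and -5 and 5 lie outside the axis), the line is the median of 20 length bins, and symbols mark the spliceosome and Lsm genes. The line falls with length, and Lsm7, Snrpg, Snrpd2 and Sf3a3 stand well above it.

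Other genes of the same pathway, from lists of proteins that work with these genes, were described in the same way. Over all these lists 15 of 114 compared genes were 4-fold higher in DP than in nasal neutrophils (background 8.42%), and 0 were with ratios centred on the median, with upper-quartile scaling or in bins of either length. Of 39 other spliceosome proteins compared, 6 were 4-fold higher in DP than in nasal neutrophils and 0 lower, with a median of 1.03. Among them Bcas2, of the Prpf19 complex, was at 139 FPKM in DP, 23.3 in nasal and 22.2 in blood neutrophils, and Ppie, a cyclophilin of the activated spliceosome, at 45.6, 8.10 and 1.39 FPKM. Crnkl1, a scaffold of the same stage, was highest in blood, at 10.3, 4.69 and 18.5 FPKM. The minor spliceosome, which removes a rare class of introns, had the highest median of these lists (1.78), with 4 of 9 past 4-fold (background 8.42%), none of them with ratios centred on the median. Its members Zmat5 (157, 25.7 and 52.8 FPKM) and Scnm1 (123, 21.5 and 50.2 FPKM) had the order DP, blood, nasal, as Snrpg and Snrpe did.

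The SMN complex loads Sm proteins onto RNA. Of 12 compared genes of that complex and of other snRNP assembly proteins, 4 were 4-fold higher in DP than in nasal neutrophils (background 8.42%). In this list 0 were lower and the median was 1.10, and with centred ratios none was 4-fold higher. Clns1a, a chaperone that holds Sm proteins before assembly, was at 27.8, 4.31 and 1.81 FPKM. Snupn, which carries finished snRNPs into the nucleus, was at 15.2, 2.00 and 0.946 FPKM. Prmt5, the methyltransferase that modifies Sm tails, was at 10.9, 3.79 and 0.489 FPKM, while its partner Wdr77 was as high in blood as in DP, at 23.4, 10.6 and 25.9 FPKM. The 14 genes of the exon junction complex and SR-related proteins had a median of 0.81 with 0 past 4-fold (background 8.42% higher). Magohb was at 11.0, 7.19 and 0.0909 FPKM. The hnRNP proteins (21), which often act against SR proteins, had a median of 0.51, below that of all genes. Of them 1, Hnrnpab (31.1, 6.07 and 1.56 FPKM), was past 4-fold (background 8.42%). Pcbp1 (42.5, 59.4 and 6.17 FPKM) and Ptbp1 (10.4, 13.6 and 2.54 FPKM) were highest in nasal neutrophils and 4-fold higher there than in blood. Genes of proliferating cells (12) had a median of 0.17 in DP against nasal neutrophils and 0.98 in nasal against blood neutrophils, with Pcna at 63.9, 24.8 and 7.14 FPKM.

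**Figure D5:**
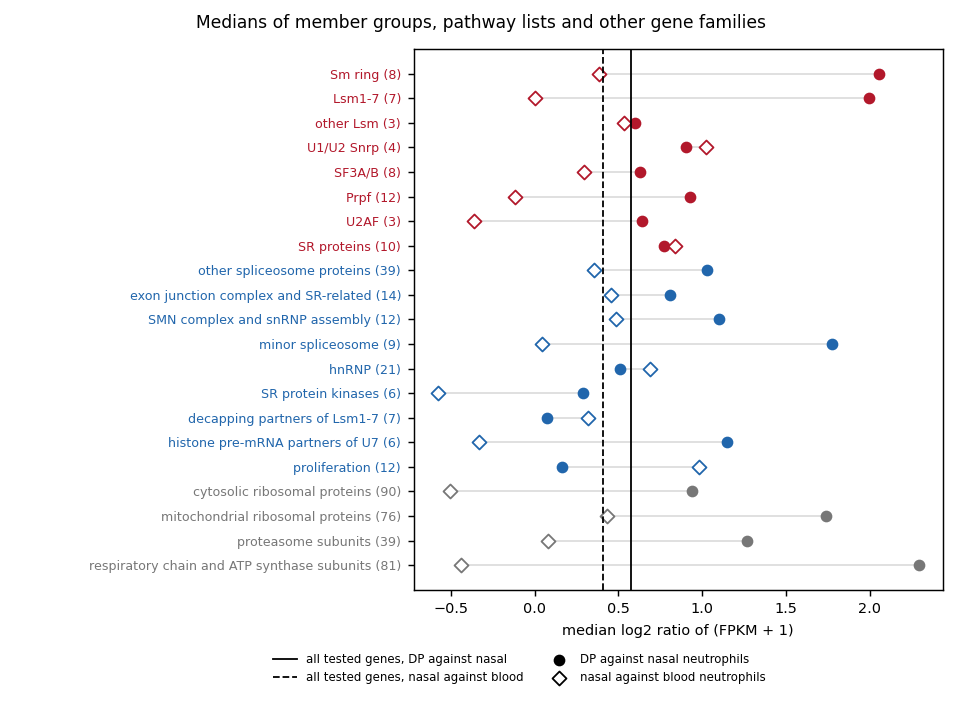
Median log2 ratio of FPKM + 1 of each group of spliceosome and Lsm genes (red), of other lists of the pathway (blue) and of other gene families (grey), with the number of compared genes in brackets; filled circles are DP against nasal neutrophils and open diamonds nasal against blood neutrophils. The Sm ring and Lsm1-7 circles sit at 2.05 and 1.99, above the minor spliceosome at 1.78 and below the respiratory chain at 2.29.

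For several genes a value may include reads of another locus. Of the 59 genes, 24 have at least 1 copy elsewhere with 90% identity or more over at least 80% of the coding sequence, and 5 have at least 5 (Lsm6, Snrpa, Snrpc, Snrpg and Srsf3). Lsm7, Snrpg and U2af1l4 each have a copy of 100% identity. Exons of Prpf39, Sf3a2, Sf3b3, Snrpa, Snrpd3, Snrpf, Srsf2 and U2af1l4 overlap another coding gene on the other strand. Those of Snrpa1, Snrpn and U2af1l4 overlap another on the same strand. Among the 25 compared genes with neither such a copy nor an exon overlapping another coding gene, 3 were 4-fold higher in DP than in nasal neutrophils (Lsm2, Sf3a3 and Sf3b5) and 4 in DP than in blood neutrophils, where 8.42% and 24.0% of all genes were.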

How the data were processed

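RNA-seq libraries of 3 sorted cell populations were read from the authors' deposited gene tables, 1 library per population. The deposited values are taken as FPKM: the submitters' processing notes name TopHat2 2.0.8, Bowtie2 2.1.0, Cufflinks 2.1.1 and mm9, and the gene column has the name Cufflinks gives it, per the file headers; settings and annotation: not given in the sources used here. Values above 0 and below 1e-06 (32 in DP, 20 in nasal neutrophils, 43 in blood neutrophils) were set to 0. No count model fits FPKM, and with 1 library per group no test was possible.

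Groups came from the labels' gate, tissue and day. Ratios were taken on the log2(FPKM + 1) scale (pseudocount 1) over genes with a mean of 1 FPKM or more (10719 of 23234), and a call needed 4-fold; p-values were not computed. The genes, groups and lists were chosen with earlier results of these data known. Any gene of the name rule could be named, with cell type markers and, in each other list, the 2 genes with the largest ratio in size in DP against nasal and in nasal against blood neutrophils; Psenen and Snurf, overlapping neighbours, were chosen after their values were seen. Lengths came from the GENCODE M21 annotation (GRCm38, not the files' build), for lengths and overlaps only (coding length for 93.7% of compared genes). Near copies were sought in its transcripts, and motifs on both strands of RefSeq promoters (build GRCm38.p6; 49 of 59 genes matched by symbol, 38 of which had the 25 bases after the start in a GENCODE transcript of the gene). Depth came from the spacing of low values after scaling to transcript length. Alternatives were pseudocounts of 0.1 and 5, other filters, rescaling, median centring, upper-quartile scaling, a 2-fold limit, transcript length bins and length classes; coding-length bins, coding-length classes and genes without near copies were added after the data were seen. The counting steps were tested on simulated data. Python 3.11.15, pandas 2.3.3, numpy 2.4.6 and matplotlib 3.10.9 were used. One gene of the set is counted in the totals and not reported here by itself.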

Additional observations from a re-analysis of the deposited data

How the results depend on the processing

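Counts below are of genes past 4-fold, higher or lower in the first library named, with those reported first. In DP against nasal neutrophils the 10 higher spliceosome and Lsm genes became 5 with ratios centred on the median, 5 with upper-quartile scaling, 4 in bins of transcript length, 4 in bins of coding length, 3 without genes that have near copies or overlaps, and 25 at 2-fold. The 15 higher genes of the other pathway lists became 5 with a pseudocount of 5, 0 with centring, with upper-quartile scaling and in bins of either length, and 53 at 2-fold, where 3 were lower in place of 0. In DP against blood neutrophils the 15 higher genes became 8 with a pseudocount of 5, 7 with centring, 8 with upper-quartile scaling, 4 and 5 in bins of transcript and coding length, 4 without near copies and 40 at 2-fold. The 0 lower genes there became 2 with centring, 1 with upper-quartile scaling, 1 and 2 in the length bins and 2 at 2-fold. The other pathway lists, with 25 higher and 1 lower, gave 9 and 0 with a pseudocount of 5, 7 and 2 with centring and with upper-quartile scaling, 6 and 2 in bins of transcript length, 7 and 3 in bins of coding length, and 60 and 3 at 2-fold. In nasal against blood neutrophils the 2 higher genes became 7 with a pseudocount of 0.1, 0 with a pseudocount of 5, 4 with values rescaled to a common sum, 1 with centring, 1 in bins of coding length, 0 without near copies and 16 at 2-fold. The 1 lower gene became 0 with a pseudocount of 5 and with rescaling, and 4 at 2-fold. The other pathway lists, with 3 higher and 1 lower, gave 9 higher with a pseudocount of 0.1, 1 and 0 with a pseudocount of 5, 6 higher with rescaling, 3 lower with centring, 4 lower in bins of either length, and 24 and 12 at 2-fold. The difference between Lsm and Snrp and Prpf and Sf3 medians in DP against nasal neutrophils (0.84) was 0.23 and 0.20 in bins of transcript and coding length, 0.55 without near copies and 1.29 for classes by coding length. In DP against blood neutrophils (1.17) it was 0.43 and 0.71 in those bins, and 0.58 and 0.72 for classes by transcript and coding length. In nasal against blood neutrophils (0.33) it was 0.59 at a mean of 5 FPKM or more, 0.74 in bins of coding length, and reversed to -0.46 and -0.51 for classes by transcript and coding length. The cause of these changes was not tested, beyond the fewer genes in the sets without near copies. Over the 7 settings in which single genes were recomputed, the 10 called genes in DP against nasal neutrophils kept the call in 45 of 70 values, with 0 reversed, and Lsm7, Snrpd2 and Snrpg kept it in all 7. In nasal against blood neutrophils 15 of 21 values kept it, and in DP against blood neutrophils 62 of 105. No paired analysis was possible because each group holds 1 library. Values of low genes in nasal neutrophils rest on few fragments, as the spacing of low values put its depth near 12900000 fragments. The part of depth in the ratios was not tested.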
